A study of Mus musculus with 6 samples.

Results

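The genes described here are 43 genes of DNA replication and S phase, chosen by symbol for what their products do, out of 41214 genes in the count tables. They were measured by RNA sequencing of mouse mammary tumour explant cells derived from NMuMG, an immortal but non-tumorigenic mammary epithelial line of the mouse, and made to express the receptor tyrosine kinase ErbB2. The compared groups were cells with a short hairpin RNA against CdGAP (shCdGAP, genotype CdGAP KD, 3 libraries) and cells with a control hairpin (shCTL, genotype WT, 3 libraries). All 6 libraries thus came from cells that express ErbB2 and carry a hairpin, and the labels do not say whether the cells were clones or how many hairpins were used. CdGAP is the product of Arhgap31. Whether the replicates are independent cultures is not stated in the labels, and a p-value here weighs a difference only against how far these libraries scatter, which could be technical scatter.

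Before a cell enters S phase, the origin recognition complex, Cdc6 and Cdt1 load the MCM helicase on DNA as an inactive ring, a step called licensing. Kinases then fire the origins, Cdc45 and GINS join the ring to make the active helicase, and polymerases copy the strands behind it while a clamp, its loader and a ligase keep the process continuous. Most of these genes are switched on together near the start of S phase by E2F transcription factors and are low in resting cells, so their RNA is commonly used to follow proliferation.

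The libraries held 19176540 to 26824249 counted fragments each, so that 1 count was worth 0.0373 to 0.0521 counts per 1000000 (CPM). Levels are CPM scaled by the trimmed mean of M values (TMM) unless said otherwise. The level of Arhgap31 was 1.70 CPM in shCdGAP replicate 1, 9.16 and 8.21 CPM in replicates 2 and 3, and 13.2, 14.4 and 15.1 CPM in the shCTL libraries. The targeted gene was thus lower in every shCdGAP library than in any shCTL library and lowest in shCdGAP replicate 1. Its log2 fold change was −1.16 ± 0.55 (SE; edgeR adjusted p = 0.19), and −0.71 without shCdGAP replicate 1, where it fell (edgeR adjusted p = 0.00407). ShCdGAP replicate 1 stood apart from the other libraries over the whole table, and the fragments that fell on mitochondrially encoded genes made up 3.24% of its counts, against 2.51% and 2.32% in shCdGAP replicates 2 and 3 and 1.58% to 1.69% in shCTL. It is therefore shown apart below. Of the 7 epithelial markers examined, Krt8 and Krt18, keratins of luminal epithelium, were abundant in every library (2594 to 4000.0 CPM of Krt18 in shCdGAP and 2495 to 3338 CPM in shCTL), and Cldn3 was at 0 in all of them. The epithelial markers were not even between the groups: Cdh1, the gene of E-cadherin, had 690.2 to 859 CPM in shCdGAP and 173 to 264 CPM in shCTL and rose, at 1.72 ± 0.19 (SE; edgeR adjusted p = 0.00193), as did Krt7, at 1.58 ± 0.32 (SE; edgeR adjusted p = 0.016) and 3.49 to 6.82 CPM in shCdGAP against 1.54 to 2.18 CPM in shCTL. Cldn4 lay at 0 to 0.0894 CPM in shCdGAP and 0.0364 to 0.155 CPM in shCTL. The markers of fibroblasts (6 genes), immune cells (7) and endothelium (5) summed to 3.41 to 7.02, 4.88 to 12.5 and 0.136 to 0.760 CPM in shCdGAP, against 5.35 to 6.19, 16.4 to 22.5 and 2.17 to 2.33 CPM in shCTL. Lum, a fibroblast marker, and Adgre1, a macrophage marker, were at 0 in all 6 libraries, but other genes of these lists were not. Cd68, of the immune list, had 2.93 to 10.9 CPM in shCdGAP and 15.4 to 21.7 CPM in shCTL. Itgam rose, at 2.73 ± 0.45 (SE, edgeR adjusted p = 0.00788), with 1.16 to 1.63 CPM in shCdGAP and 0.0752 to 0.310 CPM in shCTL. Pdgfra had 1.23 to 3.98 CPM in shCdGAP and 3.38 to 4.59 CPM in shCTL, and Col1a1 1.86 to 3.45 and 1.35 to 1.86 CPM. Tek, of the endothelial list, fell, at −6.35 ± 0.69 (SE; edgeR adjusted p = 0.00586). Tek had 0 counts in every shCdGAP library and only 8, 11 and 12 in shCTL replicates 1 to 3. Pecam1, Cdh5 and Vwf of that list also lay lower in every shCdGAP library than in any shCTL library, and Kdr did not. The part of the other markers in the results below was not tested.

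RefSeq promoter windows on GRCm38.p6, from 250 bases before to 50 bases after a transcript start, were at hand for 36 of the 43 genes. They were searched on both strands for the E2F words TTTCCCGC, TTTGGCGC, TTTCGCGC and TTTGCCGC, which can overlap each other where one strand's word runs into the other's. A word stood in a window of 15 of the 36 genes (41.7%), against 4.7% of the 9846 tested genes with a window and 2.6% of all 27025 genes with one. CCAAT, the core of the NF-Y site, stood in windows of 23 of the 36 (63.9%) and of 43.5% of tested genes. A matched word describes the sequence and does not show that a factor binds there. The windows below belong to Cdc6 (chr11:98907901-98908200, plus strand), Cdt1 (chr8:122567765-122568064, plus strand), Mcm5 (chr8:75109259-75109558, plus strand), Mcm7 (chr5:138171834-138172133, minus strand), Gins3 (chr8:95633309-95633608, plus strand) and E2f2 (chr4:136172024-136172323, plus strand). Only windows with an E2F word are shown. Cdc6 was taken because it was among the lowest in shCdGAP replicate 1, and the other 5 because their call turned on that library. This choice was made after the values were seen. Among the remaining genes whose call turned on that library, E2f1, Cdc45 and Chaf1a had a window without a word and Gmnn had no window. Further windows of Mcm7 and E2f2, without a word, are not shown. Capitals mark the E2F words, written 5′ to 3′ on the strand of the gene.
Cdc6: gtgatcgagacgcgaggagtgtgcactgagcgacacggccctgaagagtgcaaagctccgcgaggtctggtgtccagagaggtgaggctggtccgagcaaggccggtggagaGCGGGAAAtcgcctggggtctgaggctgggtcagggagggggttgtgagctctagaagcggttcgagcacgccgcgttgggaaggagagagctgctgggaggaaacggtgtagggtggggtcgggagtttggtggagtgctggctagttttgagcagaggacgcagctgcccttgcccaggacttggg
Cdt1: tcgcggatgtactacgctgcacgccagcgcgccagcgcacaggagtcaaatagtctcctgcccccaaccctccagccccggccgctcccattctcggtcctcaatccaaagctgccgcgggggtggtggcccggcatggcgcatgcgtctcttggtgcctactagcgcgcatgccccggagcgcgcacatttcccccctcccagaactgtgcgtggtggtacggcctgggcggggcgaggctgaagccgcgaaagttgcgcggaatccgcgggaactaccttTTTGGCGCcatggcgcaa
Mcm5: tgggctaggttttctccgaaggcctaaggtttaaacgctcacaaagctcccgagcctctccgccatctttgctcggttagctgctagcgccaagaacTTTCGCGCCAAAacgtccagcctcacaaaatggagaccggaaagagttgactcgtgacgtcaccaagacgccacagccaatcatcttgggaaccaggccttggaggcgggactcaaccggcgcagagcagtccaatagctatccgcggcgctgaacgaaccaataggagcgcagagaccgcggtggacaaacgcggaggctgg
Mcm7: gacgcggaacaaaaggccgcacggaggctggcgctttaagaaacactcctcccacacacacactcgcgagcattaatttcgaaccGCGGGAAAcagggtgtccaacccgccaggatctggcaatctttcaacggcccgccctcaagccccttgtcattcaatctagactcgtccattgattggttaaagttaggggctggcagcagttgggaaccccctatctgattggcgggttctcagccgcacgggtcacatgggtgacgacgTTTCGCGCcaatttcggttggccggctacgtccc
Gins3: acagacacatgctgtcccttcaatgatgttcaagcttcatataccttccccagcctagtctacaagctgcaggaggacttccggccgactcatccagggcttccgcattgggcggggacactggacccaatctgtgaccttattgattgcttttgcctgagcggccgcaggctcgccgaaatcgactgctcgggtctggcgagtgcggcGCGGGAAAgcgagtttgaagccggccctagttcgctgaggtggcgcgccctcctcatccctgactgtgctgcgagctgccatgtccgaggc
E2f2: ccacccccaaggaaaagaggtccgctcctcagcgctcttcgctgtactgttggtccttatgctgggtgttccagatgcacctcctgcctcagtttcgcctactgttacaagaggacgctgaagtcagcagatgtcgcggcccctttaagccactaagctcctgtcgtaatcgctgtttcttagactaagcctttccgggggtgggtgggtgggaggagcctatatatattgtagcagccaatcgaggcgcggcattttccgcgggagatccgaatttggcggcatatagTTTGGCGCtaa
In Mcm5 the words of the opposite strands overlap in a single run of capitals, and Mcm7 holds separate words far apart in its window. Those of Cdt1 and E2f2, and the TTTCGCGC word of Mcm7, lie downstream of the RefSeq start that sets the window, in the last 50 bases. The annotation used for counting starts E2f2 at 136172394, past the end of its window, so there the word lies upstream. It starts Cdc6 at 98907801 and Mcm7, on the minus strand, at 138172422, so their windows lie within the counted gene.

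The 43 genes were low together in a single library. In shCdGAP replicate 1 all 43 were at their lowest of the 6 libraries, which held for 28.9% of the 13483 tested genes. Their levels there were 1.33-fold to 22.5-fold below the shCTL mean, and 41 of the 43 were at least 2-fold below it, against 14.2% of tested genes. The exceptions were Rfc1 and Gins4. At least 4-fold below were 23 of the 43 and 6.4% of tested genes, and at least 8-fold below were 10 and 3.35%. In shCdGAP replicates 2 and 3 the number at least 2-fold below the shCTL mean was 1 (E2f2) and 0, against 10.1% and 11.1% of tested genes. At least 2-fold above it in shCdGAP replicate 3 were 2 (Cdt1 and Mcm5), against 5.23%. Both shCdGAP replicates 2 and 3 lay above all shCTL libraries for 17 of the 43 and below them for 4, against 32.1% and 33.3% of tested genes. The median log2 difference from the shCTL mean was −2.21, 0.10 and 0.21 in shCdGAP replicates 1, 2 and 3 for the 43 genes and −0.0017, −0.0064 and −0.016 for all tested genes. These log2 differences carry a pseudocount of 0.1 CPM. As 1 library, shCdGAP replicate 1 carries no replicate check of its own. In bulk RNA, fewer cells in S phase and less of these RNAs per cell cannot be told apart.

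**Figure D1:**
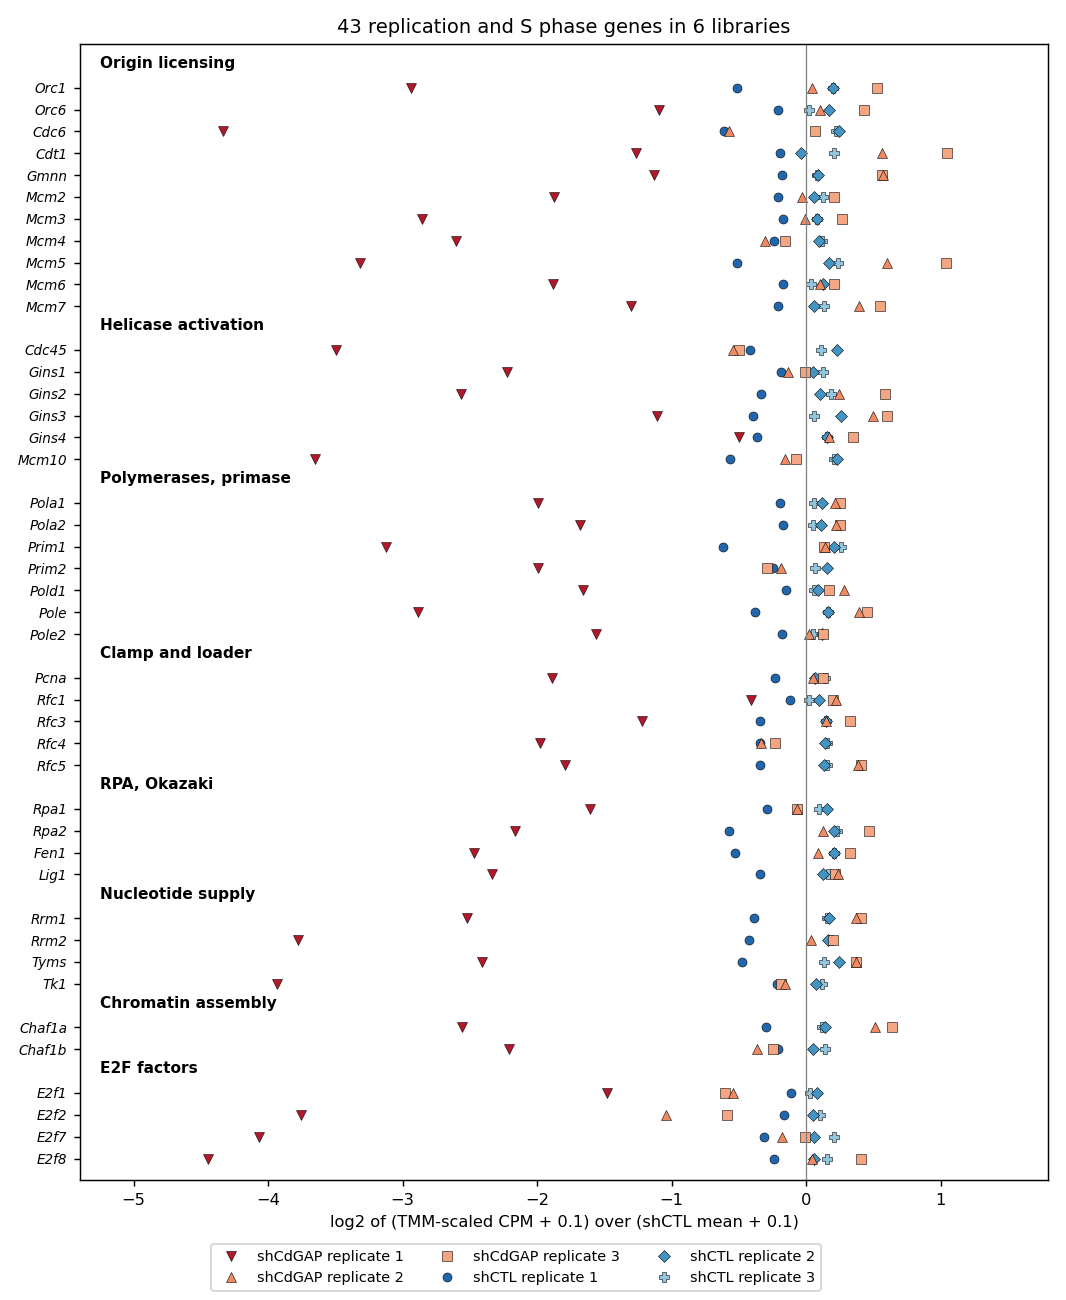
Level of each of the 43 genes in each library, as log2 of (TMM-scaled CPM + 0.1) over the shCTL mean plus 0.1 (x axis), with genes grouped by role (y axis) and 1 symbol per library. The shCdGAP replicate 1 symbols lie to the left of all others in every row, from −0.41 (Rfc1) down to −4.45 (E2f8), while shCdGAP replicates 2 and 3 scatter around the shCTL libraries.

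Between the groups as labelled, none of the 43 genes passed. All 43 were tested, 35 log2 fold changes lay below 0 (49.1% of tested genes), and the edgeR adjusted p ran from 0.0656 to 0.968. Of all tested genes, 10.4% rose and 11.4% fell. At an unadjusted p under 0.05 there was 1 of the 43 (E2f1), against at least the 21.7% of tested genes that were called. DESeq2 called E2f1 alone among the 43 (fallen, against 14.5% of tested genes). The median log2 fold change was −0.26 for the 43 genes and 0.010 for all tested genes. With the replicate block the members' median was −0.55, with 38 of 43 below 0, and without shCdGAP replicate 1 it was 0.22. The standard errors of the 43 log2 fold changes ran from 0.19 (Rfc1) to 0.94 (E2f8), and 35 of the 43 differences were smaller than their own SE. The groups did not overlap in 4 of the 43 (E2f1, E2f2, Cdc45 and Chaf1b, all lower in shCdGAP), against 22.4% of tested genes lower and 21.7% higher, or 44.1% either way.

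Without shCdGAP replicate 1, with 2 shCdGAP and 3 shCTL libraries, 6 of the 43 rose and 3 fell. The risen were Cdt1, Gmnn, Mcm5, Mcm7, Gins3 and Chaf1a, and the fallen E2f1, E2f2 and Cdc45. These make 14% and 6.98% of the 43, against 19.9% risen and 21.9% fallen among all tested genes, so the shares lie below those of all tested genes. The log2 fold changes ran from −0.79 (E2f2) to 0.85 (Mcm5), with a median of 0.22, and 30 of the 43 lay above 0. Their standard errors ran from 0.088 to 0.27. Within shCTL, replicate 1 was the lowest of its group for all 43 genes, which held for 42.8% of tested genes. Its levels lay at 65.1% (Prim1) to 92.4% (E2f1) of the shCTL mean. Without both libraries numbered 1, 11 of the 43 rose and 11 fell, against 25.5% and 26.7% of tested genes. Pole, Gins2, Rfc5, Rrm1 and Tyms joined the risen there, and Cdc6, Mcm4, Mcm10, Prim2, Rfc4, Rpa1, Tk1 and Chaf1b the fallen.

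**Figure D2:**
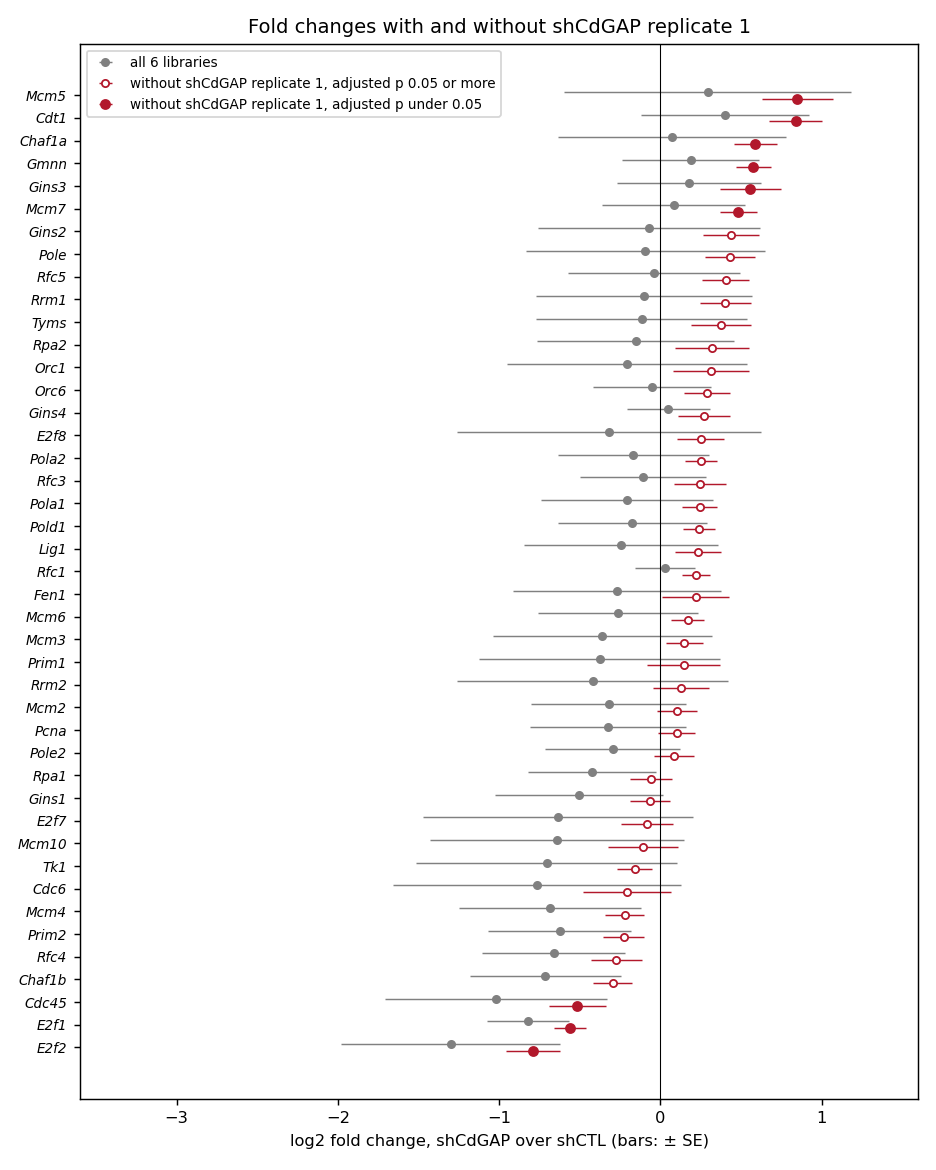
Log2 fold change of shCdGAP over shCTL (x axis, bars ± SE) for each of the 43 genes (y axis), over all 6 libraries in grey and without shCdGAP replicate 1 in red, filled where the edgeR adjusted p was under 0.05. Without that library every error bar is shorter, 6 genes at the top and 3 at the bottom are filled, and the grey points all lie to the left of the red ones of the same gene.

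**Figure D3:**
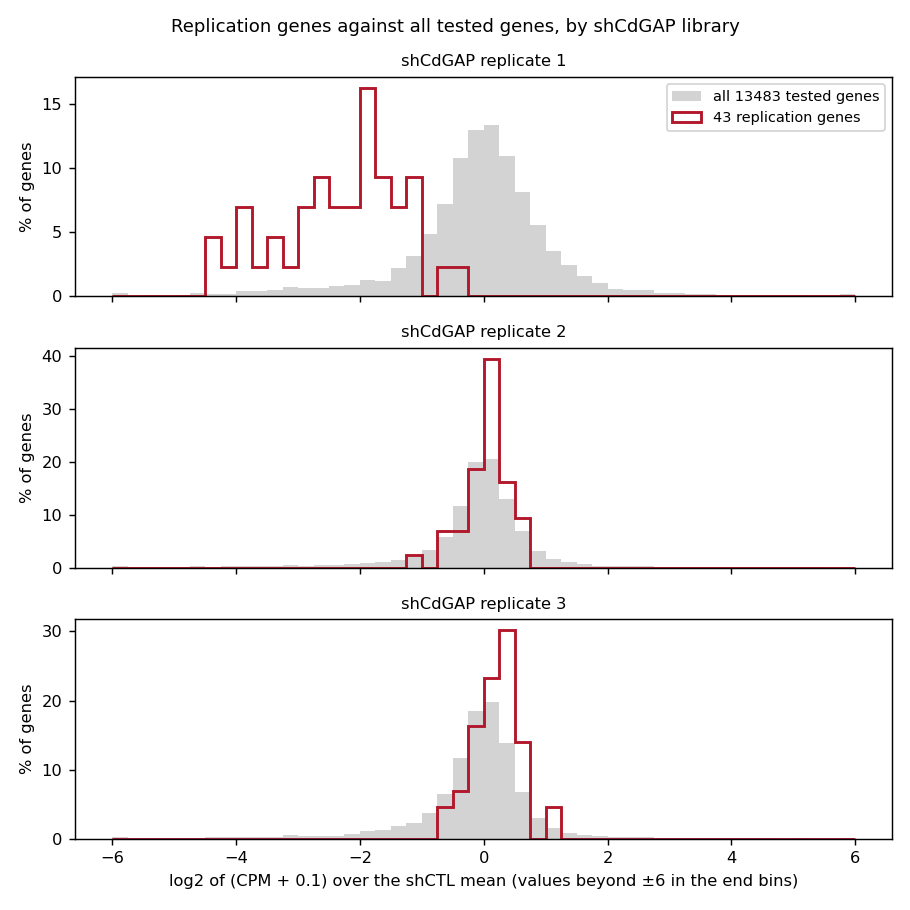
Share of genes (y axis, percent) by log2 of (CPM + 0.1) over the shCTL mean (x axis) in each shCdGAP library, for all 13483 tested genes (grey) and the 43 replication genes (red outline). In shCdGAP replicate 1 the replication genes lie left of the bulk of genes, with a median of −2.21, and in replicates 2 and 3 they lie over it, with medians of 0.10 and 0.21.

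The 11 licensing genes differed widely in how low they were in shCdGAP replicate 1. Their median log2 difference from the shCTL mean was −1.89, 0.10 and 0.43 in shCdGAP replicates 1, 2 and 3. Cdc6 stood at 2.59, 36.5 and 56.9 CPM in shCdGAP replicates 1, 2 and 3, against 35.5, 64.2 and 63.2 CPM in shCTL. Cdc6, the loader ATPase that brings the MCM ring to origins, was thus 20.9-fold below the shCTL mean in that library, the largest gap of the class, and the groups overlapped through shCdGAP replicates 2 and 3. The log2 fold change of Cdc6 was −0.76 ± 0.89 (SE; edgeR adjusted p = 0.598), the largest of the class over all libraries, and −0.21 without shCdGAP replicate 1. For Orc1, shCdGAP replicate 1 held 1.97 CPM and replicates 2 and 3 held 16.2 and 22.6 CPM, while the shCTL libraries held 11, 18.1 and 18.1 CPM. Orc1, the largest subunit of the origin recognition complex, was 8.0-fold below the shCTL mean in shCdGAP replicate 1, and Orc6, its smallest subunit, 2.14-fold.

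Cdt1, which escorts the MCM ring to the origin, and Gmnn, whose product geminin binds Cdt1 and blocks it outside G1, shared a pattern. Cdt1 had 24.4 CPM in shCdGAP replicate 1 and 86.6 and 121 CPM in shCdGAP replicates 2 and 3, against 51.1, 57 and 67.6 CPM in shCTL replicates 1 to 3. The level of Gmnn was 16.5 CPM in shCdGAP replicate 1, 53.7 and 53.6 CPM in replicates 2 and 3, and 31.9, 38.4 and 38.4 CPM in the shCTL libraries. For both genes shCdGAP replicates 2 and 3 lay above all shCTL libraries and shCdGAP replicate 1 below them. Over all libraries the log2 fold change was 0.40 ± 0.52 (SE; edgeR adjusted p = 0.635) for Cdt1 and 0.19 ± 0.42 (SE; edgeR adjusted p = 0.801) for Gmnn. Without shCdGAP replicate 1 it was 0.84 ± 0.16 (SE; edgeR adjusted p = 0.00459) and 0.58 ± 0.11 (SE; edgeR adjusted p = 0.00366), and both rose.

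Mcm2 to Mcm7 encode the subunits of the hexameric ring, each present once, so their levels per length can be set side by side. In CPM per kilobase of annotated exons (RPKM) the subunits lay within 1.58-fold to 2.09-fold of each other in the shCTL libraries. This length can exceed that of the transcripts made, so ranks and ratios per length here and below depend on the annotation. How far was not tested. The ratio of the highest to the lowest was 5.84 in shCdGAP replicate 1 and 1.36 and 1.37 in replicates 2 and 3. Mcm5 stood at 3.23, 49 and 66.6 RPKM in shCdGAP replicates 1, 2 and 3, against 22.6, 36.3 and 38.1 RPKM in shCTL. Mcm5 was the lowest subunit in every shCTL library and in shCdGAP replicate 1, but not in shCdGAP replicates 2 and 3, where Mcm4 was lowest. For Mcm7, shCdGAP replicate 1 held 18.8 RPKM and replicates 2 and 3 held 60.9 and 67.9 RPKM, while the shCTL libraries held 40.2, 48.3 and 51 RPKM. Mcm7 was the highest subunit in all 3 shCdGAP libraries, while Mcm4 or Mcm2 was highest in shCTL.

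On the CPM scale, Mcm5 in shCdGAP replicate 1 was 10.03-fold below the shCTL mean, Mcm3 7.28-fold, Mcm4 6.11-fold, Mcm6 3.70-fold, Mcm2 3.67-fold and Mcm7 2.47-fold. Mcm2 had 50.2 CPM in shCdGAP replicate 1 and 179.9 and 212 CPM in shCdGAP replicates 2 and 3, against 159, 192 and 201 CPM in shCTL replicates 1 to 3. Mcm2, the most abundant licensing gene per length over the 6 libraries, had shCdGAP replicates 2 and 3 within or just above the shCTL range. The level of Mcm5 was 11 CPM in shCdGAP replicate 1, 168 and 228 CPM in replicates 2 and 3, and 77.4, 124 and 130.2 CPM in the shCTL libraries. In Mcm5 and Mcm7 shCdGAP replicates 2 and 3 lay above all shCTL libraries. In edgeR the log2 fold change was 0.29 ± 0.89 (SE; edgeR adjusted p = 0.856) for Mcm5 and 0.082 ± 0.44 (SE; edgeR adjusted p = 0.922) for Mcm7. Without shCdGAP replicate 1 both rose, at 0.85 ± 0.22 (SE; edgeR adjusted p = 0.0157) and 0.48 ± 0.11 (SE; edgeR adjusted p = 0.0109). For Mcm2, Mcm3, Mcm4 and Mcm6 the log2 fold change ran from −0.68 (Mcm4) to −0.26 (Mcm6), and from −0.22 (Mcm4) to 0.17 (Mcm6) without that library, with no call.

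**Figure D4:**
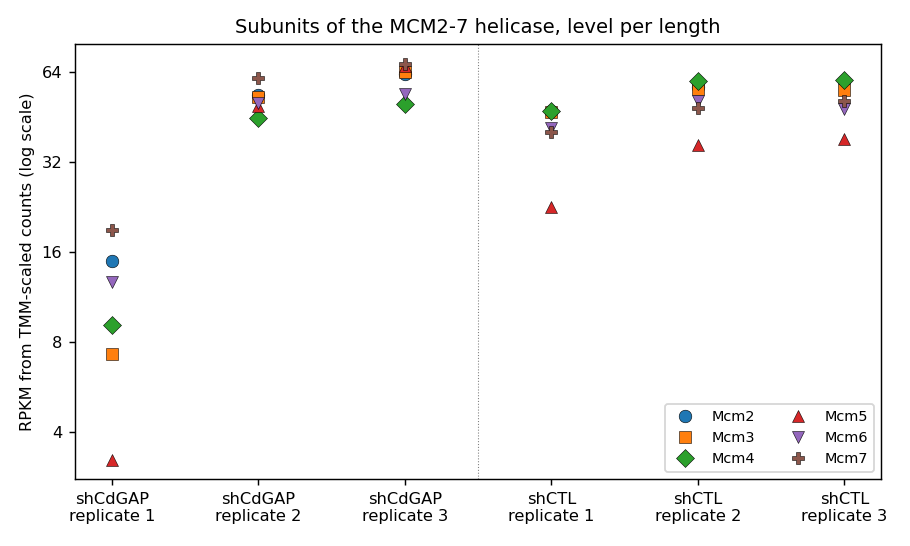
Level per length of Mcm2 to Mcm7 in each library (x axis), in RPKM from TMM-scaled counts (y axis, log scale). The 6 subunits lie close together in the shCTL libraries and in shCdGAP replicates 2 and 3, and in shCdGAP replicate 1 they are lower and spread from 3.23 RPKM (Mcm5) to 18.8 RPKM (Mcm7).

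Genes that turn the loaded ring into the working helicase had medians of −2.40, 0.014 and 0.17 on the same log2 scale in shCdGAP replicates 1, 2 and 3. Cdc45 stood at 4.16, 32.8 and 33.9 CPM in shCdGAP replicates 1, 2 and 3, against 35.9, 56.1 and 51.8 CPM in shCTL. Cdc45, a rate-limiting partner of the ring, was the only one of these 6 genes whose groups did not overlap, with a log2 fold change of −1.02 ± 0.69 (SE; edgeR adjusted p = 0.347). Without shCdGAP replicate 1 it fell, at −0.51 ± 0.18 (SE; edgeR adjusted p = 0.0494). For Mcm10, shCdGAP replicate 1 held 4.69 CPM and replicates 2 and 3 held 53.9 and 57.2 CPM, while the shCTL libraries held 40.5, 70.6 and 69.4 CPM. Mcm10, a scaffold needed for firing, was 12.8-fold below the shCTL mean in shCdGAP replicate 1, near the 11.5-fold of Cdc45, and its groups overlapped, at a log2 fold change of −0.64 ± 0.79 (SE; edgeR adjusted p = 0.617) and of −0.11 without shCdGAP replicate 1.

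The 4 GINS subunits, which also assemble in equal numbers, did not share a common size of gap. Gins4 had 24.8 CPM in shCdGAP replicate 1 and 39.4 and 44.7 CPM in shCdGAP replicates 2 and 3, against 27.2, 38.9 and 39.1 CPM in shCTL replicates 1 to 3. Gins4, the most abundant of the 6 genes per length, was 1.42-fold below the shCTL mean in shCdGAP replicate 1, while Gins3 was 2.18-fold, Gins1 4.74-fold and Gins2 6.05-fold below it. In RPKM the highest subunit exceeded the lowest 16.8-fold in shCdGAP replicate 1, 4.81-fold and 5.10-fold in shCdGAP replicates 2 and 3, and 5.61-fold to 6.49-fold in shCTL. Gins4 was the highest in all 6 libraries. The level of Gins3 was 4.69 CPM in shCdGAP replicate 1, 14.5 and 15.5 CPM in replicates 2 and 3, and 7.74, 12.3 and 10.6 CPM in the shCTL libraries. Without shCdGAP replicate 1 Gins3 rose, at 0.56 ± 0.19 (SE; edgeR adjusted p = 0.0451), and Gins1, Gins2 and Gins4 had log2 fold changes of −0.064, 0.44 and 0.27 with no call.

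Polymerase and primase genes were 2.98-fold (Pole2) to 8.81-fold (Prim1) below the shCTL mean in shCdGAP replicate 1. Their medians were −1.99, 0.21 and 0.17 in shCdGAP replicates 1, 2 and 3. Primase and polymerase alpha lay the first primers, polymerase delta extends the lagging strand and polymerase epsilon the leading strand. Pola2 stood at 30.7, 115 and 118 CPM in shCdGAP replicates 1, 2 and 3, against 87.8, 107 and 102 CPM in shCTL. Pola2, the second subunit of polymerase alpha and the most abundant of the 7 per length, lay above all shCTL libraries in shCdGAP replicates 2 and 3, as did Pola1, Pold1 and Pole. For Pole, shCdGAP replicate 1 held 10.7 CPM and replicates 2 and 3 held 105 and 109 CPM, while the shCTL libraries held 61.2, 89.2 and 89.3 CPM. Pole, the catalytic subunit of polymerase epsilon, was 7.45-fold below the shCTL mean in shCdGAP replicate 1 against 2.98-fold for its partner Pole2, 3.17-fold for Pold1 and 4.0-fold for Pola1.

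The primase subunits differed from each other. Prim1 had 11 CPM in shCdGAP replicate 1 and 107 and 106 CPM in shCdGAP replicates 2 and 3, against 63, 112 and 116 CPM in shCTL replicates 1 to 3. The level of Prim2 was 11.5 CPM in shCdGAP replicate 1, 40.6 and 37.8 CPM in replicates 2 and 3, and 39, 51.3 and 48.3 CPM in the shCTL libraries. For both subunits shCdGAP replicates 2 and 3 overlapped the shCTL libraries. Prim1, the catalytic subunit, had its shCTL replicate 1 value at 65.1% of the shCTL mean, the widest spread within shCTL of the 43 genes by that measure. Prim2, the regulatory subunit, had the largest log2 fold change of the class, −0.62 ± 0.44 (SE; edgeR adjusted p = 0.373). None of the 7 was called with or without shCdGAP replicate 1. Their log2 fold changes ran from −0.62 to −0.093 over all libraries and from −0.23 (Prim2) to 0.43 (Pole) without it.

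The sliding clamp and its loader included the gene with the smallest gap of the 43, Rfc1. Medians were −1.80, 0.14 and 0.20 in shCdGAP replicates 1, 2 and 3. Pcna stood at 50.9, 195 and 206 CPM in shCdGAP replicates 1, 2 and 3, against 161, 198 and 208 CPM in shCTL. Pcna, the ring that tethers polymerases to DNA and the most abundant of this class per length, was 3.71-fold below the shCTL mean in shCdGAP replicate 1 and within the shCTL range in replicates 2 and 3. Retrocopies of Pcna (Pcna-ps1 and Pcna-ps2, up to 9.71 CPM) may share reads with it, and how far this changes its level was not tested. For Rfc1, shCdGAP replicate 1 held 88.9 CPM and replicates 2 and 3 held 137 and 136 CPM, while the shCTL libraries held 108, 126 and 119.8 CPM. Rfc1, the large subunit of the clamp loader, was 1.33-fold below the shCTL mean in shCdGAP replicate 1, against 2.34-fold, 3.97-fold and 3.49-fold for Rfc3, Rfc4 and Rfc5. Rfc4 had 8.18 CPM in shCdGAP replicate 1 and 25.7 and 27.6 CPM in shCdGAP replicates 2 and 3, against 25.5, 35.7 and 36.2 CPM in shCTL replicates 1 to 3. Rfc4 lay near shCTL replicate 1 in shCdGAP replicates 2 and 3 and had the largest log2 fold change of the class over all libraries, −0.66 ± 0.44 (SE; edgeR adjusted p = 0.341), against −0.27 without shCdGAP replicate 1, where Rfc5 had 0.41. None of the 5 was called with or without shCdGAP replicate 1.

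Among the 4 genes for single-stranded DNA and the joining of Okazaki fragments, medians were −2.25, 0.10 and 0.27 in shCdGAP replicates 1, 2 and 3. The level of Fen1 was 16.9 CPM in shCdGAP replicate 1, 99.9 and 118 CPM in replicates 2 and 3, and 65.3, 109 and 109 CPM in the shCTL libraries. Rpa1 stood at 73.5, 213 and 214 CPM in shCdGAP replicates 1, 2 and 3, against 183, 249 and 239 CPM in shCTL. Fen1, the nuclease that trims the flap of each fragment and the most abundant of these 4 per length, was 5.58-fold below the shCTL mean in shCdGAP replicate 1, and Lig1, the ligase that seals the nick, 5.07-fold. Fen1 and Rpa1 overlapped the shCTL libraries in shCdGAP replicates 2 and 3, while Lig1 lay above all of them there. Rpa1 and Rpa2, subunits of the protein that coats single strands, were 3.04-fold and 4.51-fold below it. Rpa1 had the largest log2 fold change of these 4, −0.42 ± 0.40 (SE; edgeR adjusted p = 0.505), but −0.056 and the smallest in size without shCdGAP replicate 1, and none was called with or without shCdGAP replicate 1.

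Genes that supply deoxynucleotides were among the lowest in shCdGAP replicate 1. Medians were −3.15, 0.20 and 0.28 in shCdGAP replicates 1, 2 and 3, and the summed CPM of the 4 genes in replicate 1 was 11.7% of the shCTL mean of that sum, against 23.2% for all 43 genes. For Rrm2, shCdGAP replicate 1 held 20.5 CPM and replicates 2 and 3 held 289.7 and 324 CPM, while the shCTL libraries held 210.4, 317 and 321 CPM. Rrm2, the S phase subunit of ribonucleotide reductase and the most abundant of the 43 genes per length in every shCTL library, was 13.8-fold below the shCTL mean in that library, while Rrm1, the large subunit that is stable through the cycle as a protein, was 5.74-fold below it. Rrm1 had 48.8 CPM in shCdGAP replicate 1 and 363 and 373 CPM in shCdGAP replicates 2 and 3, against 214, 316 and 312 CPM in shCTL replicates 1 to 3. In shCdGAP replicates 2 and 3 Rrm1 lay above all shCTL libraries.

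Tk1 and Tyms, which provide thymidylate, also differed in the size of the gap. The level of Tk1 was 10.5 CPM in shCdGAP replicate 1, 146 and 143 CPM in replicates 2 and 3, and 140.1, 171 and 177 CPM in the shCTL libraries. Tk1, the cytosolic thymidine kinase that salvages thymidine in S phase, was 15.4-fold below the shCTL mean in shCdGAP replicate 1, and Tyms, which makes thymidylate from deoxyuridylate, 5.36-fold. Tyms stood at 13.3, 92 and 92.1 CPM in shCdGAP replicates 1, 2 and 3, against 51.3, 84.5 and 78.2 CPM in shCTL. Tyms lay above all shCTL libraries in shCdGAP replicates 2 and 3 and Tk1 at about the level of shCTL replicate 1. The log2 fold change of Tk1, the largest of the class over all libraries, was −0.70 ± 0.81 (SE; edgeR adjusted p = 0.59) and, without shCdGAP replicate 1, −0.16, and none of the 4 was called with or without shCdGAP replicate 1.

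The subunits of chromatin assembly factor 1, which puts histones on new DNA, went opposite ways in shCdGAP replicates 2 and 3. For Chaf1a, shCdGAP replicate 1 held 14 CPM and replicates 2 and 3 held 119 and 129 CPM, while the shCTL libraries held 67.4, 91.3 and 90.1 CPM. Chaf1b had 13.3 CPM in shCdGAP replicate 1 and 47.9 and 51.9 CPM in shCdGAP replicates 2 and 3, against 53.3, 63.9 and 68.1 CPM in shCTL replicates 1 to 3. Chaf1a lay above and Chaf1b below all shCTL libraries there, and both were lowest in shCdGAP replicate 1, by 5.93-fold and 4.65-fold. Over all libraries the log2 fold change was 0.073 ± 0.71 (SE; edgeR adjusted p = 0.958) for Chaf1a and −0.71 ± 0.47 (SE; edgeR adjusted p = 0.338) for Chaf1b. Without shCdGAP replicate 1 Chaf1a rose, at 0.59 ± 0.13 (SE; edgeR adjusted p = 0.00925), and Chaf1b had −0.30 ± 0.12 (SE; edgeR adjusted p = 0.0812), which did not pass.

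Among the 4 E2F factors of the list, E2f1 and E2f2 lay lower in every shCdGAP library than in any shCTL library, and E2f7 and E2f8 were near 0 in shCdGAP replicate 1. Medians of the 4 genes were −3.91, −0.36 and −0.30 in shCdGAP replicates 1, 2 and 3. The level of E2f1 was 17.4 CPM in shCdGAP replicate 1, 33.4 and 32 CPM in replicates 2 and 3, and 45, 51.6 and 49.5 CPM in the shCTL libraries. E2f2 stood at 1.34, 9.39 and 12.9 CPM in shCdGAP replicates 1, 2 and 3, against 17.3, 20.1 and 20.8 CPM in shCTL. E2f1 and E2f2, activators of the S phase genes, had their lowest level in shCdGAP replicate 1, with replicates 2 and 3 between it and shCTL. E2f1 averaged 27.6 ± 8.88 CPM in shCdGAP and 48.7 ± 3.37 CPM in shCTL (SD, n = 3 each). Its log2 fold change was −0.82 ± 0.25 (SE; edgeR adjusted p = 0.0656), the smallest adjusted p of the 43 genes. It fell with the replicate number as a block (−0.87, edgeR adjusted p = 0.0439; 10.9% of tested genes fell there), in DESeq2 (−0.82, adjusted p = 0.0233) and without shCdGAP replicate 1, at −0.56 ± 0.10 (SE; edgeR adjusted p = 0.0028). E2f2 averaged 7.87 ± 5.92 CPM in shCdGAP and 19.4 ± 1.87 CPM in shCTL (SD, n = 3 each). Its log2 fold change, the largest of the 43 in size, was −1.30 ± 0.68 (SE; edgeR adjusted p = 0.231), and without shCdGAP replicate 1 it fell, at −0.79 ± 0.17 (SE; edgeR adjusted p = 0.00686).

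E2f7 and E2f8, atypical members that repress S phase genes and are themselves switched on in S phase, had no separate groups. For E2f7, shCdGAP replicate 1 held 1.34 CPM and replicates 2 and 3 held 21.2 and 23.9 CPM, while the shCTL libraries held 19.3, 25 and 27.8 CPM. E2f8 had 3.17 CPM in shCdGAP replicate 1 and 73.5 and 94.7 CPM in shCdGAP replicates 2 and 3, against 60.3, 74.3 and 79.2 CPM in shCTL replicates 1 to 3. In shCdGAP replicate 1 E2f8 was 22.5-fold below the shCTL mean, the largest gap of the 43 genes, and E2f7 17.9-fold, against 14.5-fold for E2f2 and 2.80-fold for E2f1. In shCdGAP replicates 2 and 3 both overlapped shCTL, and their log2 fold changes were −0.63 ± 0.84 (SE; edgeR adjusted p = 0.642) and −0.32 ± 0.94 (SE; edgeR adjusted p = 0.851). They became, without shCdGAP replicate 1, −0.083 and 0.25, with no call. The counts behind the E2f2 and E2f7 values in shCdGAP replicate 1 were 30 each, the lowest among the 43 genes.

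Genes with and without an E2F word in their window overlapped in the size of the gap. The 15 genes with a word had a median of −1.99 in shCdGAP replicate 1, on the log2 scale against the shCTL mean, and the 21 with a window but no word had −2.21. Their ranges were −4.34 (Cdc6) to −1.11 (Gins3) and −4.45 (E2f8) to −0.41 (Rfc1), and thus overlapped over most of their length. The difference was not tested.

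**Figure D5:**
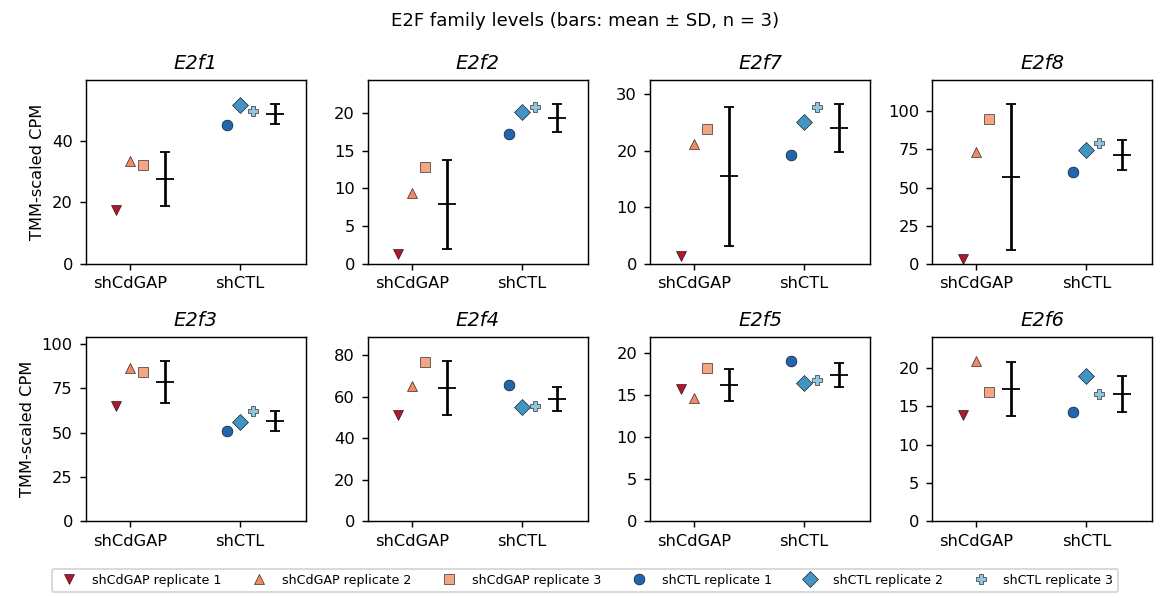
TMM-scaled CPM (y axis, from 0) of the 8 E2F genes in shCdGAP and shCTL libraries (x axis), with 1 symbol per library and the mean ± SD of each group (n = 3). E2f1 and E2f2 lie lower in all 3 shCdGAP libraries, E2f7 and E2f8 are near 0 in shCdGAP replicate 1, E2f3 lies higher in all 3 shCdGAP libraries, and E2f4, E2f5 and E2f6 overlap between the groups.

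Of a further list of 60 genes of replication, nucleotide supply and E2F control, 47 were at their lowest in shCdGAP replicate 1 (78.3%, against 28.9% of tested genes). All 60 were tested, and edgeR called 0 over all libraries, against 21.7% of tested genes. At an unadjusted p under 0.05 there were 4 of the 60, against at least that 21.7%, as every called gene also passes unadjusted. DESeq2 called 3 risen (E2f3, Tfdp2 and Tk2, against 14% of tested genes) and the replicate block 1 (E2f3, against 9.47%). In shCdGAP replicate 1, 32 of the 60 were at least 2-fold below the shCTL mean (53.3%, against 14.2% of tested genes), and the median was −1.29 on the log2 scale. Clspn, a mediator of the replication checkpoint, was at 4.91% of the shCTL mean there and the nuclease gene Exo1 at 6.47%. Asf1b was at 6.85%, and Ticrr, which helps to fire origins, at 7.30%. Without that library 12 of the 60 rose (20%, against 19.9% of all tested genes) and 1 fell (1.67%, against 21.9%), so the share that rose was close to that of all genes. The smallest adjusted p among the risen belonged to Rnaseh2c, a subunit of the enzyme that removes ribonucleotides, at 0.74 ± 0.090 (SE; edgeR adjusted p = 0.000449), then to E2f3, at 0.61 ± 0.10 (SE; edgeR adjusted p = 0.00208), Mcmbp and Pclaf. The gene that fell was Pold4, the smallest subunit of polymerase delta, at −1.27 ± 0.13 (SE; edgeR adjusted p = 0.000182). The level of Pold4 was 76.6 CPM in shCdGAP replicate 1, 26.5 and 25.9 CPM in replicates 2 and 3, and 73.3, 57.7 and 59.7 CPM in the shCTL libraries. Pold4 was thus at its highest in shCdGAP replicate 1, and shCdGAP replicates 2 and 3 lay below all shCTL libraries.

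Genes that mark cycling cells in later phases were also lowest in shCdGAP replicate 1. The summed CPM of 7 such genes (Mki67, Ccnb1, Cdk1, Aurkb, Bub1, Plk1 and Cdc20) was 135 in shCdGAP replicate 1 and 2049 and 1960.4 in shCdGAP replicates 2 and 3, against 988, 1444 and 1473 in shCTL replicates 1 to 3. Each of the 7 was lowest there, and in shCdGAP replicates 2 and 3 their sum lay above that of all shCTL libraries. Taken singly, Bub1 and Aurkb did not lie above all shCTL libraries in both, while the rest of the 7 did. Bub1 had 115 and 119 CPM in shCdGAP replicates 2 and 3, against 96.2, 145 and 136 CPM in shCTL. For Aurkb these were 135 and 104 CPM, against 77.9, 116 and 111 CPM. Mki67 stood at 44.9, 722 and 672 CPM in shCdGAP replicates 1, 2 and 3, against 274, 407 and 408 CPM in shCTL. Mki67, the gene of the proliferation antigen Ki-67, had a log2 fold change of 0.40 ± 0.85 (SE; edgeR adjusted p = 0.785). Over the 43 replication genes the summed CPM was 929 in shCdGAP replicate 1 and 4333 and 4761 in shCdGAP replicates 2 and 3, against 3261, 4365 and 4380.3 in shCTL. The lowest Arhgap31 level and the highest share of mitochondrial counts were in the same library as the lowest replication genes, and their part in the result was not tested.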

How the data were processed

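RNA of 6 libraries was measured as counts per gene. The deposited counts were raw fragment counts, made per the file headers with featureCounts 1.4.6 on TopHat alignments and the Ensembl release 77 annotation of GRCm38, with both ends of a pair aligned, chimeric pairs left out and strand setting 2. The submitters' processing notes also list DESeq, Cuffdiff 2.2.1, TopHat2 2.0.14, Trimmomatic 0.30 and CASAVA 1.8. Gene lengths came from the same deposited files. They cover all annotated exons of a gene and are not lengths of single transcripts. Symbols from GENCODE M21 matched 40254 of 41214 genes and all 43 members.

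Changes were computed with edgeR 4.0.16 in R 4.3.3: filterByExpr (minimum count 10, minimum total 15), TMM scaling and the quasi-likelihood F test over all 6 libraries, with Benjamini-Hochberg adjustment over 13483 tested genes and calls at an adjusted p under 0.05. All adjusted p-values are of this kind unless DESeq2 (1.42.0) is named. SE is the absolute log2 fold change over the square root of F. Log2 fold changes are shCdGAP over shCTL. All 43 members passed the filter, and their counts ran from 30 to 9405. The steps were tested on simulated counts with the same dispersion for all genes and no outlying library. That test cannot show how the fit behaves with a library like shCdGAP replicate 1.

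The members and lists were chosen with earlier results of these data known. Values in every library are given for the most abundant member per length and the member with the largest log2 fold change of each class, and, chosen after their values were seen, for members called without shCdGAP replicate 1 and a few others. The planned rule for promoters, called members with an E2F word only, named none, so those printed were also chosen later. Same-numbered libraries deviated together from their group means over tested genes (correlations 0.355, 0.289 and 0.246). ShCdGAP replicate 2 also went with shCTL replicate 3 (0.254), and shCdGAP replicate 3 with shCTL replicate 2 (0.186). The correlations thus set the libraries numbered 1 apart and do not decide which of replicates 2 and 3 belong together. For the block the numbers were taken as pairs on that ground only, as no label ties a number to a day or batch. The reported fit has no block. A fit with the block, other scalings and filters, DESeq2 and each library left out in turn were alternatives.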

Additional observations from a re-analysis of the deposited data

How the results depend on the processing

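Leaving out 1 library at a time gave 538 to 2753 risen and 856 to 3032 fallen genes over the whole table, 0 to 6 risen and 0 to 3 fallen of the 43, and 0 to 12 risen and 0 to 1 fallen of the 60 further genes, with every call on either list coming from the fit without shCdGAP replicate 1. Without both libraries numbered 1, 3475 genes rose and 3640 fell, with 11 and 11 of the 43 and 19 and 4 of the 60. Among genes averaging 10 CPM or more, 870 genes rose and 825 fell. DESeq2 called 1 of the 43 fallen and 3 of the 60 risen, RLE size factors 1 of the 60 risen (Tfdp2), and the replicate block 1 of the 43 fallen (E2f1, −0.87) and 1 of the 60 risen (E2f3), with no other call on either list changed by the block. Since no member was called, the sign of many log2 fold changes was not fixed by the data. With 1 library left out they ran from −0.79 to 0.31 for Orc1, −0.38 to 0.29 for Orc6, −0.076 to 0.84 for Cdt1, −0.044 to 0.58 for Gmnn, −0.68 to 0.10 for Mcm2, −0.82 to 0.15 for Mcm3, −0.31 to 0.85 for Mcm5, −0.57 to 0.17 for Mcm6, −0.22 to 0.48 for Mcm7, −0.57 to 0.44 for Gins2, −0.093 to 0.56 for Gins3, −0.13 to 0.27 for Gins4, −0.50 to 0.24 for Pola1, −0.43 to 0.25 for Pola2, −0.72 to 0.15 for Prim1, −0.47 to 0.24 for Pold1, −0.46 to 0.43 for Pole, −0.56 to 0.086 for Pole2, −0.62 to 0.10 for Pcna, −0.067 to 0.22 for Rfc1, −0.38 to 0.25 for Rfc3, −0.33 to 0.41 for Rfc5, −0.61 to 0.32 for Rpa2, −0.69 to 0.22 for Fen1, −0.55 to 0.23 for Lig1, −0.45 to 0.40 for Rrm1, −0.86 to 0.13 for Rrm2, −0.44 to 0.38 for Tyms, −0.32 to 0.59 for Chaf1a and −0.89 to 0.25 for E2f8. Without both libraries numbered 1 the sign turned, to 0.12 for Orc1, 0.19 for Orc6, 0.0072 for Mcm2, 0.069 for Mcm3, 0.087 for Mcm6, 0.30 for Gins2, 0.15 for Pola1, 0.17 for Pola2, 0.17 for Pold1, 0.27 for Pole, 0.0048 for Pole2, 0.10 for Rfc3, 0.26 for Rfc5, 0.10 for Rpa2, 0.014 for Fen1, 0.090 for Lig1, 0.24 for Rrm1, 0.19 for Tyms and 0.14 for E2f8. With the replicate block it turned, to −0.39 for Mcm5, −0.10 for Mcm7 and −0.38 for Chaf1a. With library totals and no TMM it turned, to −0.0091 for Gins4 and −0.025 for Rfc1. The cause of these changes was not tested beyond the libraries left out. Depth limits the 43 genes most in shCdGAP replicate 1, where the lowest counts were 30 (E2f2 and E2f7).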

Other observations

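Several genes stand beside a replication gene as a relative that works outside S phase, and their levels in shCdGAP replicate 1 differed from those of the S phase partner. Rrm2b, the subunit of ribonucleotide reductase used in resting cells, was at 121% of the shCTL mean there, against 7.25% for Rrm2. Tk2, the mitochondrial thymidine kinase, was at 201%, against 6.48% for Tk1. For Tk2, shCdGAP replicate 1 held 18.3 CPM and replicates 2 and 3 held 11.2 and 13.5 CPM, while the shCTL libraries held 9.08, 8.62 and 9.59 CPM. Tk2 did not overlap between the groups, and its log2 fold change was 0.65 ± 0.21 (SE; edgeR adjusted p = 0.0749). All shCdGAP libraries lay above all shCTL libraries for 6 of the 60 further genes (10%), a smaller share than the 21.7% of tested genes. Among the pocket proteins that hold E2F in check, Rbl1 was at 15.4% of the shCTL mean in shCdGAP replicate 1, while Rb1 was at 142% and Rbl2 at 133%. Rbl2 had 44.2 CPM in shCdGAP replicate 1 and 37 and 36.8 CPM in shCdGAP replicates 2 and 3, against 33.9, 33.2 and 32.8 CPM in shCTL replicates 1 to 3. The groups did not overlap for Rbl2, at a log2 fold change of 0.24 ± 0.12 (SE; edgeR adjusted p = 0.214).

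E2f3, an activator like E2f1 and E2f2, was higher in all 3 shCdGAP libraries. The level of E2f3 was 65.1 CPM in shCdGAP replicate 1, 86.4 and 84.3 CPM in replicates 2 and 3, and 51.1, 55.7 and 62.1 CPM in the shCTL libraries. Its log2 fold change was 0.48 ± 0.15 (SE; edgeR adjusted p = 0.0641), and with the replicate block E2f3 rose. Tfdp2, a partner that E2F proteins need to bind DNA, had 0.37 ± 0.11 (SE; edgeR adjusted p = 0.0517), also with separate groups. Groups apart in that direction were found for 21.7% of tested genes. These genes were picked after their values were seen.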
